A study of Mus musculus with 23 samples.

Results

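The 9 genes described are the zinc-finger transcription factors Egr1, Egr2, Egr3 and Egr4, the corepressors Nab1 and Nab2 that bind them, and the orphan nuclear receptors Nr4a1, Nr4a2 and Nr4a3. They were chosen by symbol as these 3 families, out of 24917 gene loci counted in colonic epithelium of aged mice, and each symbol stood at 1 locus. RNA was sequenced from 23 samples of male mice, C57BL/6 by the labels and C57BL/6J by the methods, which were put on their diets when 6 weeks old and kept on them for 43 weeks. Control mice (LF) received a diet with 10% fat, obese mice (HF) a diet with 60% fat, and weight-loss mice (HF-LF) the 60% fat diet for 15 weeks followed by the 10% fat diet for 28 weeks. The fat of both diets was lard, and the epithelium was released from the whole colon with EDTA. In batch 1 there were 4 LF, 3 HF and 4 HF-LF samples, and in batch 2 there were 4, 3 and 5 in that order. The labels give the batch only as a number. As the methods describe 5 mice on each regimen, a mouse may stand behind more than 1 sample, and p-values measure the spread between samples.

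Egr and Nr4a genes are immediate early genes: growth factors, cyclic AMP, calcium or stress switch them on within minutes, before any new protein is made, and their transcripts are short-lived. Egr proteins bind GC-rich sites and turn on later genes, among them Nab2, and the Nab proteins then bind Egr1, Egr2 and Egr3 and hold their activity down through the NuRD chromatin complex. Nr4a receptors act without a known natural ligand, alone or with the retinoid X receptors, and in epithelia they are known for roles in stress responses, metabolism and cell survival.

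Epithelial identity was as labelled. The 7 epithelial markers (Epcam, Cdh1, Krt8, Krt18, Krt20, Vil1 and Cdx2) summed to between 9615 and 13150 CPM (counts scaled to equal library totals, with TMM factors within a batch) in every sample, with no marker at 0 in a whole group. Summed markers of T cells (5.19 to 10.3 CPM), B cells (0.884 to 6.89 CPM), macrophages (up to 37.2 CPM), endothelium (6.65 to 19.4 CPM), and neurons and glia (0.879 to 2.04 CPM) were low. Fibroblast markers ranged from 2.88 to 51.6 CPM and smooth muscle markers from 0.383 to 42.9 CPM. Counts per sample ran from 29189922 to 65320947, so that 3 reads correspond to 0.0459 to 0.103 CPM, a floor that covers counting error only. In a bulk sample, fewer cells of a type and less RNA per cell cannot be told apart.

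The promoters of the genes that the results turn on are shown first, where the start site of the counted locus matched one in RefSeq (build GRCm38.p6). Entries were found for 7 of the 9 genes, all but Egr1 and Egr3. The lines give the 250 bases before the start, 5′ to 3′ on the strand of the gene, and capitals mark motif matches.
Egr2 (chr10:67537619-67537868, plus strand): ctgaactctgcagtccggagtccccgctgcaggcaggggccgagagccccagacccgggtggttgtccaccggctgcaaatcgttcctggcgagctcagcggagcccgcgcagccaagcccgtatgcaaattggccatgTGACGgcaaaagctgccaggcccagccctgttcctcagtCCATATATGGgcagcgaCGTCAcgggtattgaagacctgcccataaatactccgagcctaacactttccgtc
Nr4a1 (chr15:101266596-101266845, plus strand): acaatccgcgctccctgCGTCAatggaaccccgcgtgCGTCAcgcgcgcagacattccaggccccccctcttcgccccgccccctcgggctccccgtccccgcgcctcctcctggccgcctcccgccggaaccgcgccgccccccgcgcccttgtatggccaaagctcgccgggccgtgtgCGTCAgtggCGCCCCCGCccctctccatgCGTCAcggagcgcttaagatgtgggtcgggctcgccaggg
Nr4a2 (chr2:57124004-57124253, minus strand): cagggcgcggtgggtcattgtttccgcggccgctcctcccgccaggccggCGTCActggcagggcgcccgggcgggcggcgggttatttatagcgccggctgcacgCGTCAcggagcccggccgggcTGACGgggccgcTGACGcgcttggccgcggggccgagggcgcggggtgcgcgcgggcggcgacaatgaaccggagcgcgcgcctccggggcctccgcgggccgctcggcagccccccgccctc
Nab1 (chr1:52500449-52500698, minus strand): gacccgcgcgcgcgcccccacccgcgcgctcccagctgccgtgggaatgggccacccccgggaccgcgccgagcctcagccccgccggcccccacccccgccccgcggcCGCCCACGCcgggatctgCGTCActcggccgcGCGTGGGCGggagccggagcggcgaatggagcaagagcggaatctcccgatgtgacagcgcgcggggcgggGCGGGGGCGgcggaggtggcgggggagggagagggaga
Capitals stand for a CArG box (the site of serum response factor, SRF), for the core TGACG of the cyclic AMP response element on either strand, or for an Egr site, GCGGGGGCG or GCGTGGGCG on either strand. Egr2 held a CArG box from 72 to 63 bases before the start, with 2 cores beside it, and 1.47% of all 32851 promoters in the table held a CArG box. Nr4a1 held 4 cores and 1 Egr site, Nr4a2 held 4 cores, and Nab1 held 3 Egr sites and 1 core. Nab2, at the start site of its counted locus, held no match. With other start sites than the counted loci, Nr4a3 held 4 cores and Egr4 held 2. At least 1 core was thus found in 6 of the 7 promoters, against 17.8% of all promoters, and Egr sites were in 3.06% of all promoters. The full element TGACGTCA, which contains the core and was held by 1.55% of all promoters, and the Nr4a site AAAGGTCA, held by 1.34%, were in none of the 7. A match is a description of letters and was not tested for binding.

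**Figure D1:**
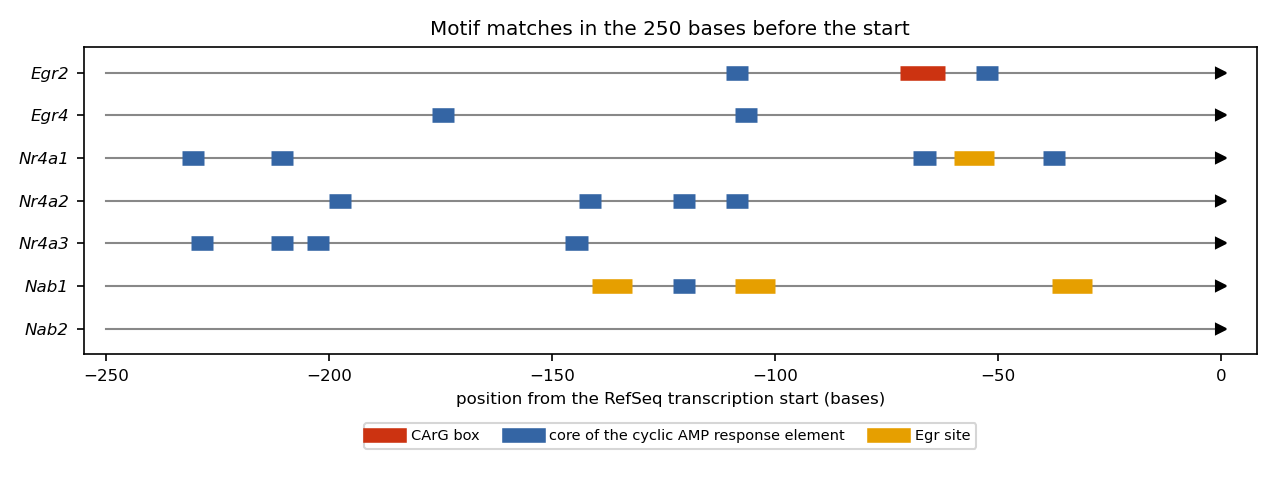
Positions of the motif matches in the 250 bases before the RefSeq transcription start of 7 genes (x axis, bases from the start, which is the arrowhead). Cores of the cyclic AMP response element stand in every promoter shown except that of Nab2, and Egr sites in those of Nr4a1 and Nab1.

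The levels of the 9 genes spanned a wide range. Per kilobase of exon, mean levels in LF mice of batch 1 were 51.2 CPM per kb for Egr1 and 45.7 for Nr4a1, whose samples overlapped. Nab1 followed at 16.1 CPM per kb, then Egr2 at 5.21 and Nr4a2 at 4.86, whose samples overlapped. Egr3 stood at 0.992 CPM per kb, Nr4a3 at 0.360 and Nab2 at 0.286, and samples of the last pair overlapped. Egr4 was lowest at 0.111 CPM per kb. In batch 2 the LF means were 78.8 CPM per kb for Egr1, 61.8 for Nr4a1, 15.6 for Nab1, 6.35 for Egr2, 3.51 for Nr4a2, 0.497 for Egr3, 0.340 for Nab2, 0.274 for Nr4a3 and 0.0916 for Egr4. The order was the same in both batches except that Nab2 and Nr4a3 changed places.

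To ask how long-term high-fat feeding relates to these genes, HF mice were compared with LF mice. The Egr and Nr4a genes were lower in HF mice, by between 0.54 and 1.45 on the log2 scale in either batch for the 6 that were tested in each, while Nab1 was higher in both. The batches differed in how many of these differences passed the test. A gene was called when its adjusted p in edgeR's quasi-likelihood test, over all genes tested, was under 0.05 and its fold change above 1.2.

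**Figure D2:**
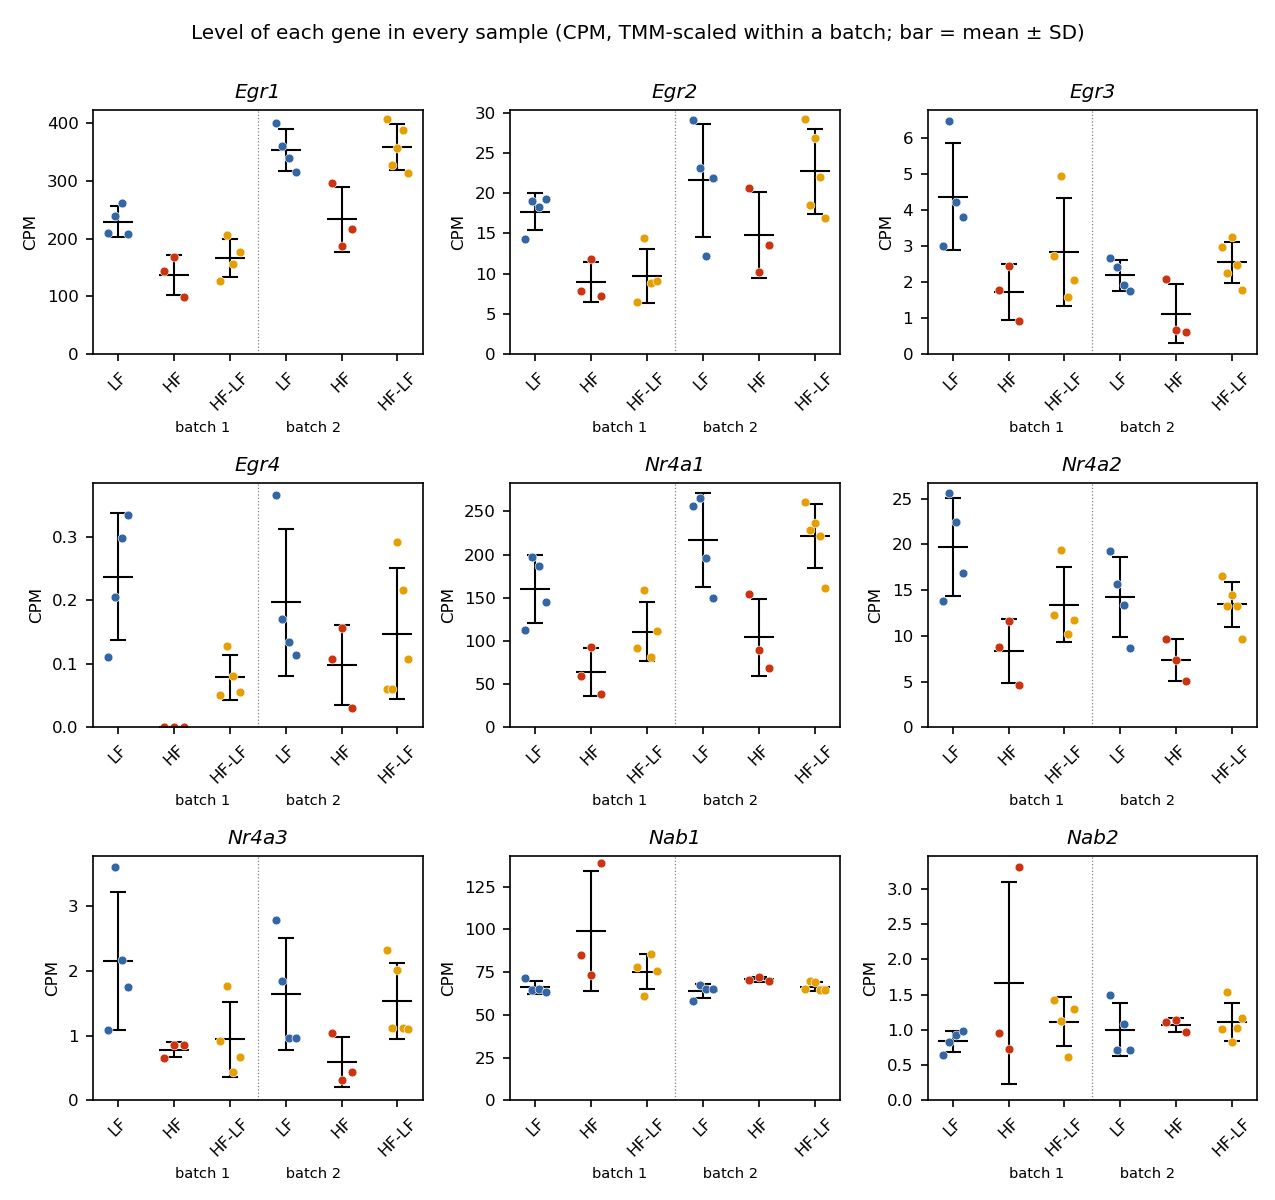
Level of each gene in every sample (y axis, CPM from 0; x axis, diet within batch 1 and batch 2), with points for samples and bars for the group mean ± SD. HF points lie low for the Egr and Nr4a genes, with no HF sample of batch 1 above 168 CPM for Egr1, and high for Nab1.

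Egr1, the most abundant of its family, is a growth-responsive activator that lies on chromosome 18. Its levels in batch 1 were 209, 240, 262 and 207 CPM in LF mice, 144, 168 and 98.8 CPM in HF mice, and 127, 206, 156 and 177 CPM in HF-LF mice. In batch 2 they were 400, 359, 340 and 315 CPM in LF mice, 297, 188 and 216 CPM in HF mice, and 407, 327, 357, 387 and 313 CPM in HF-LF mice. Every HF sample lay below every LF sample of its batch. The log2 fold change of HF against LF was -0.75 ± 0.18 (SE) in batch 1, with an adjusted p of 0.139 by edgeR, and -0.60 ± 0.14 in batch 2, with an adjusted p of 0.0305.

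Egr2 (chr10:67537869-67542188, positions of loci in the build mm10 as deposited), known as a regulator of myelination and of lymphocyte tolerance, was counted at 14.3, 19.0, 18.3 and 19.2 CPM in LF mice of batch 1, 7.83, 11.9 and 7.25 CPM in HF mice, and 6.46, 14.4, 8.85 and 9.10 CPM in HF-LF mice. In batch 2 it stood at 29.1, 23.2, 12.2 and 21.8 CPM in LF mice, 20.6, 10.2 and 13.6 CPM in HF mice, and 29.2, 18.6, 26.9, 22.0 and 16.9 CPM in HF-LF mice. The HF samples were apart from LF in batch 1 and overlapped them in batch 2. The log2 fold changes were -0.98 ± 0.24 (adjusted p 0.139, edgeR) and -0.54 ± 0.27 (adjusted p 0.176).

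Egr3 (chr14:70077445-70082613), which in other tissues serves muscle spindles and lymphocytes, had 2.99, 6.46, 4.23 and 3.79 CPM in LF mice of batch 1, 1.79, 2.46 and 0.924 CPM in HF mice, and 2.72, 4.95, 1.59 and 2.05 CPM in HF-LF mice. In batch 2 it had 2.66, 2.43, 1.91 and 1.76 CPM in LF mice, 2.08, 0.676 and 0.627 CPM in HF mice, and 2.96, 2.26, 3.24, 2.47 and 1.79 CPM in HF-LF mice. HF was below LF throughout in batch 1, and in batch 2 replicate 1 of HF reached into the LF range. The log2 fold changes were -1.35 ± 0.42 (adjusted p 0.160, edgeR) and -0.96 ± 0.35 (adjusted p 0.0830).

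Egr4 (chr6:85511122-85513542) was close to the limit of detection. Reads numbered 4, 6, 11 and 12 in LF mice of batch 1, 0 in each of the 3 HF mice, and 2, 5, 3 and 2 in HF-LF mice. In batch 2 they numbered 12, 7, 5 and 5 in LF mice, 5, 6 and 2 in HF mice, and 2, 2, 11, 8 and 5 in HF-LF mice. Against a floor of 3 counts over the group, HF mice of batch 1 were 9.87-fold lower than LF mice, a ratio without the counting error of the LF reads. The 95% counting intervals were 0.165 to 0.336 CPM in LF and 0 to 0.0298 CPM in HF mice of that batch. In batch 2 the ratio of LF to HF was 2.17, with a 95% counting interval from 1.09 to 4.54. The gene was not tested within batches by edgeR for its low counts. A two-sided exact permutation test of HF against LF gave p = 0.0286 in batch 1, the smallest that 3 against 4 samples allow, p = 0.229 in batch 2 and p = 0.00408 over both, and 0.0514, 0.294 and 0.0367 after adjustment over 9 tests.

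Nr4a1 (chr15:101266846-101274794), a receptor also called Nur77, was the most abundant of its family. It stood at 113, 197, 187 and 145 CPM in LF mice of batch 1, 59.7, 93.3 and 38.7 CPM in HF mice, and 92.4, 158, 81.6 and 111 CPM in HF-LF mice. In batch 2 it stood at 256, 265, 197 and 150 CPM in LF mice, 154, 89.6 and 68.7 CPM in HF mice, and 261, 228, 237, 221 and 161 CPM in HF-LF mice. HF and LF were apart in batch 1, and in batch 2 the highest HF sample lay just above the lowest LF sample. The log2 fold change of HF against LF was -1.33 ± 0.30 in batch 1 (adjusted p 0.137, edgeR) and -1.06 ± 0.25 in batch 2 (adjusted p 0.0322).

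Nr4a2 (chr2:57107226-57124003), known for its role in dopamine neurons, was counted at 13.8, 25.7, 22.5 and 16.9 CPM in LF mice of batch 1, 8.73, 11.6 and 4.62 CPM in HF mice, and 12.3, 19.4, 10.2 and 11.7 CPM in HF-LF mice. In batch 2 it was at 19.2, 15.7, 13.4 and 8.70 CPM in LF mice, 9.66, 7.36 and 5.01 CPM in HF mice, and 16.5, 13.3, 14.5, 13.3 and 9.63 CPM in HF-LF mice. Its HF samples were below LF in batch 1 and met only the lowest LF sample in batch 2. The log2 fold changes were -1.25 ± 0.31 (adjusted p 0.139, edgeR) and -0.96 ± 0.25 (adjusted p 0.0382).

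Nr4a3 (chr4:48051248-48083352), also called Nor1, had 1.08, 3.61, 2.17 and 1.76 CPM in LF mice of batch 1, 0.647, 0.850 and 0.856 CPM in HF mice, and 0.915, 1.76, 0.432 and 0.664 CPM in HF-LF mice. In batch 2 it had 2.78, 1.84, 0.969 and 0.961 CPM in LF mice, 1.04, 0.312 and 0.443 CPM in HF mice, and 2.32, 1.12, 2.02, 1.11 and 1.10 CPM in HF-LF mice. HF replicate 1 of batch 2 was above the lower LF samples, and all other HF samples were below LF. The log2 fold changes were -1.45 ± 0.47 (adjusted p 0.162, edgeR) and -1.43 ± 0.46 (adjusted p 0.0609).

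The corepressor Nab1 (chr1:52455849-52500448) went the other way. It stood at 71.9, 64.3, 65.4 and 63.3 CPM in LF mice of batch 1, 84.8, 73.1 and 139 CPM in HF mice, and 78.1, 61.2, 85.9 and 75.6 CPM in HF-LF mice. In batch 2 the levels were 57.9, 67.5, 65.2 and 64.9 CPM in LF mice, 70.3, 72.4 and 69.8 CPM in HF mice, and 65.0, 69.8, 69.5, 64.4 and 64.3 CPM in HF-LF mice. All HF samples were above all LF samples of their batch, by little in batch 2. The log2 fold changes were 0.58 ± 0.18 (adjusted p 0.160, edgeR) and 0.15 ± 0.06 (adjusted p 0.107). Replicate 3 of HF in batch 1 was high in Nab1 and low in Egr1, and without it the change in that batch was 0.26 ± 0.13.

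Nab2 (chr10:127660918-127666703), itself a known target of Egr proteins, overlaps Stat6 on the other strand by 70 bases, and whether strand was used in counting is not stated. Levels in batch 1 were 0.638, 0.825, 0.922 and 0.976 CPM in LF mice, 0.949, 0.729 and 3.31 CPM in HF mice, and 1.42, 1.12, 0.621 and 1.30 CPM in HF-LF mice. In batch 2 they were 1.498, 0.711, 1.08 and 0.709 CPM in LF mice, 1.10, 1.14 and 0.963 CPM in HF mice, and 1.01, 1.54, 0.824, 1.03 and 1.17 CPM in HF-LF mice. Apart from replicate 3 of HF in batch 1, which also had the highest Nab1, HF samples lay within the LF range. The log2 fold change was 0.99 ± 0.46 in batch 1 (adjusted p 0.225, edgeR), 0.02 ± 0.34 without that sample, and 0.11 ± 0.27 in batch 2 (adjusted p 0.799).

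Over the 9 genes, edgeR called 0 of the 8 tested between HF and LF mice in batch 1, where it called 0.0% of 14428 genes. All 8 had an unadjusted p under 0.05, with 6 lower and 2 higher, against 10.2% of all genes lower and 12.0% higher. In the 6 lower genes every HF sample was below every LF sample, which held for 7.33% of all genes tested. In Nab1 every HF sample was above, which held for 6.29%. Egr4, which is not among the genes tested, was also below in every HF sample, with 0 reads in each. DESeq2 called 6 of the 9 in the same samples, and 480 of the 12258 genes to which it gave an adjusted p. The 9 are counted whether or not they had one. Voom with sample weights called 7 of the 8 tested (2422 of 14428). Without replicate 2 of HF, edgeR called 7 of 9 tested (1352 of 14620). The tested set differed there, as Egr4 then passed the filter through its LF samples. In batch 2, edgeR called 3 as lower, Egr1, Nr4a1 and Nr4a2, against 4.4% of all genes. There every HF sample was below LF for Egr1 alone (13.5% of all genes) and above LF for Nab1 alone (13.8%). The 3 calls were lost without any one of replicates 1, 2 or 3 of LF or replicates 2 or 3 of HF, and without replicate 1 of HF there were 5.

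With both batches in one fit and batch as a covariate, 6 genes besides Egr4 fell in HF mice and Nab1 rose, and these results repeat the same samples. The share of all 14725 genes called was 8.41% lower and 9.4% higher. The falls by edgeR were -0.67 ± 0.13 for Egr1 (adjusted p 0.0036), -0.77 ± 0.22 for Egr2 (0.0156), -1.17 ± 0.30 for Egr3 (0.0093), -1.19 ± 0.21 for Nr4a1 (0.0022), -1.10 ± 0.21 for Nr4a2 (0.0037) and -1.44 ± 0.36 for Nr4a3 (0.0092). Nab1 was 0.38 ± 0.10 higher (0.0131) and Nab2 0.57 ± 0.28 higher (0.125, not called). Egr4 was also called as lower, but it entered the fit through its LF samples, and its fitted fold depends on the prior count. Without replicate 3 of HF in batch 1 the rise of Nab1 was 0.21 ± 0.07 (adjusted p 0.0399) and under the required fold, and by voom with sample weights it was 0.23 ± 0.07 (0.0244), also under that fold. By voom the fall of Egr2 was -0.56 ± 0.25 (adjusted p 0.0926) and not called.

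**Figure D3:**
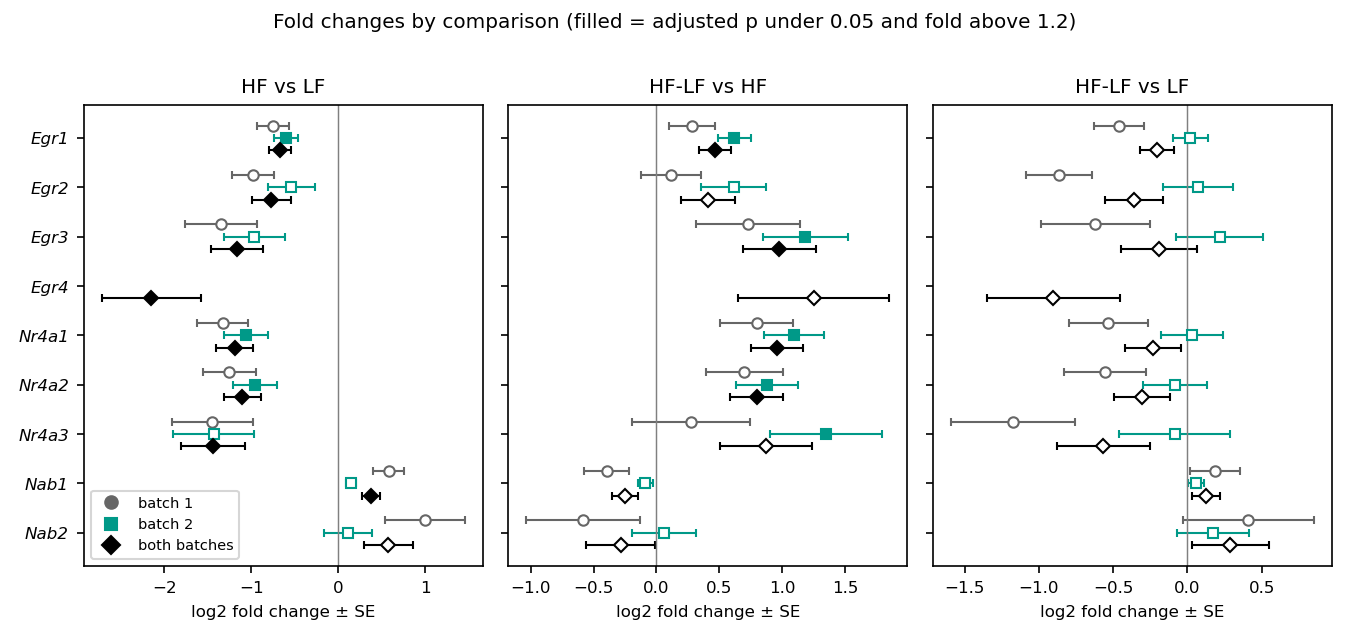
Log2 fold change ± SE (x axis) of each gene (y axis) for HF against LF, HF-LF against HF and HF-LF against LF, in batch 1 (circles), batch 2 (squares) and both batches (diamonds), with filled symbols for called genes. For HF against LF the Egr and Nr4a genes lie left of 0 and the Nab genes right of 0, and for HF-LF against LF no symbol is filled.

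To ask whether these genes differ after weight loss, HF-LF mice were compared with HF mice and with LF mice, which share samples with the comparison above. In batch 2 edgeR called 5 genes as higher in HF-LF than in HF mice, against 8.89% of all genes. The rises were 0.62 ± 0.13 for Egr1 (adjusted p 0.0144), 1.18 ± 0.34 for Egr3 (0.0305), 1.09 ± 0.24 for Nr4a1 (0.0152), 0.88 ± 0.24 for Nr4a2 (0.0279) and 1.35 ± 0.45 for Nr4a3 (0.0480). Egr2 differed by 0.61 ± 0.26 (0.102), Nab1 by -0.09 ± 0.06 (0.266) and Nab2 by 0.06 ± 0.26 (0.882), which did not pass. Every HF-LF sample was above every HF sample for Egr1, Nr4a1 and Nr4a3 (14.6% of all genes), and below for Nab1 (12.4%). No gene of the 9 was called in batch 2 without replicate 2 or without replicate 3 of HF. Without replicate 1, 3 or 4 of HF-LF there were 2, 3 and 2 calls.

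In batch 1 edgeR called 0 of the 8 genes tested between HF-LF and HF mice, where it called 0.00693% of all genes, and so did DESeq2 and voom. An unadjusted p under 0.05 was reached by 3 genes, against 10.9% of all genes, Nr4a1 (0.80 ± 0.29, adjusted p 0.412), Nr4a2 (0.70 ± 0.30, 0.445) and Nab1 (-0.40 ± 0.18, 0.454). Egr1 differed by 0.28 ± 0.18, Egr2 by 0.12 ± 0.24, Egr3 by 0.73 ± 0.41, Nr4a3 by 0.27 ± 0.47 and Nab2 by -0.58 ± 0.45. Egr4 had 12 reads in HF-LF mice against 0 in HF mice, and was the only gene of the 9 with every HF-LF sample above every HF sample. That held for 3.95% of the genes tested, among which Egr4 is not counted. Against the floor of 3 counts the ratio was 3.26, without the counting error of the HF-LF reads (95% interval 0.0409 to 0.138 CPM). The exact permutation test of HF-LF against HF gave Egr4 p = 0.0286 in batch 1, 0.5 in batch 2 and 0.0255 over both. After adjustment over 9 tests these were 0.0514, 0.5 and 0.0514. Over both batches edgeR called 4 genes as higher in HF-LF mice, against 4.79% of all genes. They were Egr1 at 0.46 ± 0.13, Egr3 at 0.98 ± 0.29, Nr4a1 at 0.96 ± 0.21 and Nr4a2 at 0.79 ± 0.21. Without replicate 3 of HF in batch 1 there was 1 call, and without replicate 2 of HF in batch 2 there were 2. The call of Egr3 was also lost without replicate 1 of HF or 2 of HF-LF in batch 1, or replicate 3 of HF or 1 of HF-LF in batch 2, with changes of 0.83 to 1.00.

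Between HF-LF and LF mice, edgeR called 0 of the 8 genes tested in either batch and 0 of the 9 over both, and DESeq2 and voom also called none. In batch 1, where 0.0% of all genes were called, unadjusted p was under 0.05 for Egr1 (-0.46 ± 0.17), Egr2 (-0.87 ± 0.22) and Nr4a3 (-1.18 ± 0.42), each with an adjusted p of 0.792, and 2.79% of all genes were lower at that p. Every HF-LF sample was below every LF sample for Egr1 (1.56% of all genes), and the mean of Egr2 was 9.70 ± 3.35 CPM in HF-LF mice, 8.99 ± 2.52 CPM in HF mice and 17.7 ± 2.30 CPM in LF mice (SD, n = 4, 3 and 4). In batch 2, where 0.00696% of all genes were called, none of the 8 genes tested by edgeR had an unadjusted p under 0.05 (4.65% of all genes did). Their differences ran from -0.09 to 0.22. There the mean of Egr2 was 22.7 ± 5.27 CPM in HF-LF mice, 14.8 ± 5.32 CPM in HF mice and 21.6 ± 7.01 CPM in LF mice (SD, n = 5, 3 and 4). Over both batches 0.0% of all genes were called by edgeR, no gene of the 9 had an unadjusted p under 0.05 in that test (4.07% of all genes did), and adjusted p was 0.981 for each. The exact permutation test of HF-LF against LF gave Egr4 p = 0.0571 in batch 1, 0.421 in batch 2 and 0.0286 over both. After adjustment over 9 tests these were 0.0857, 0.473 and 0.0514.

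Whether a diet difference differed between the batches was tested as an interaction in edgeR, and 0 of 14725 genes passed an adjusted p of 0.05. At an unadjusted p under 0.05 were Egr2 (0.93 ± 0.36 higher in batch 2, edgeR adjusted p 0.632) and Egr1 (0.48 ± 0.22, adjusted p 0.645) for HF-LF against LF, and Nab1 for HF against LF (-0.41 ± 0.20, adjusted p 0.767). Egr4 was there for both comparisons with HF, where the 0 counts of batch 1 leave its fitted size without meaning. The order of HF-LF and LF mice was thus not shown to differ between batches for Egr1 or Egr2.

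Across the 23 samples Egr1, Egr2 and Nr4a1 had positive correlations with each other and with Egr3, Nr4a2 and Nr4a3. Egr4 was not among the genes correlated. The values are Pearson r of log2 CPM centred on batch means, a description in which the points share library, depth and diet. Nr4a1 had r = 0.977 with Nr4a2, 0.950 with Egr3, 0.933 with Egr1, 0.824 with Nr4a3 and 0.789 with Egr2. With the diet means also removed, r was 0.955 between Nr4a1 and Nr4a2 and 0.841 between Nr4a1 and Egr1. Nab1 had r = -0.751 with Egr1 (-0.872 within batch 1 and -0.658 within batch 2) and -0.739 with Nr4a1 (-0.919 and -0.494). Nab2 had -0.436 with Egr1, which was -0.651 within batch 1 and -0.011 within batch 2, and -0.322 with Nr4a1, which was -0.524 and 0.049.

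**Figure D4:**
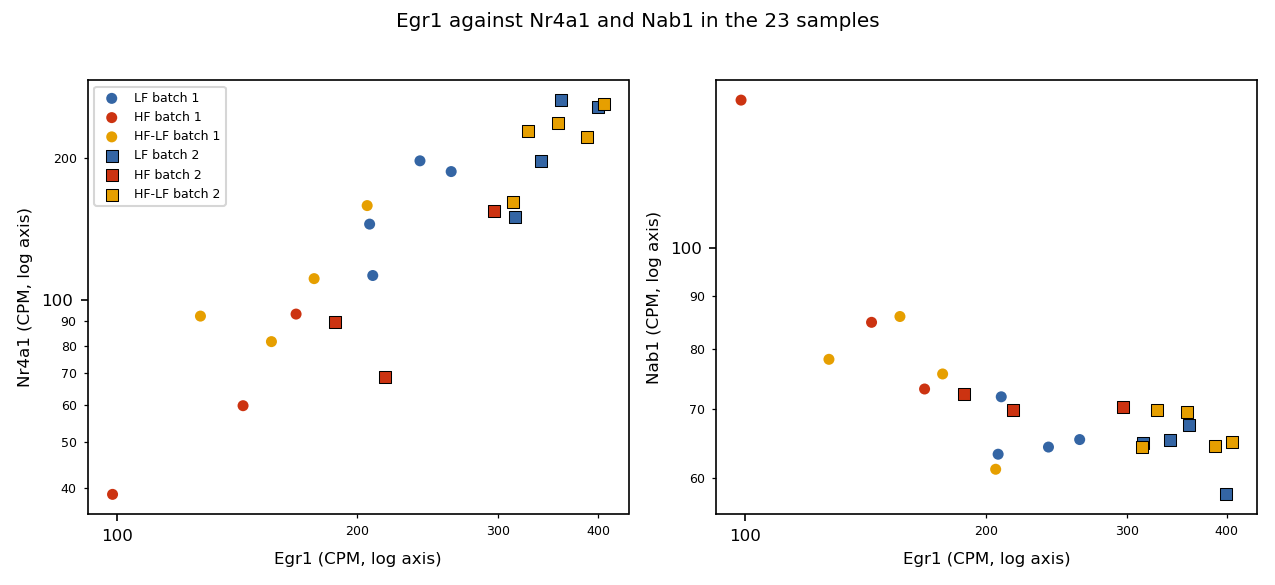
Egr1 (x axis, CPM, log axis) against Nr4a1 and against Nab1 (y axes, CPM, log axes) in the 23 samples, coloured by diet, with circles for batch 1 and squares for batch 2. Nr4a1 goes up with Egr1 in both batches, and 1 HF sample of batch 1 has the lowest Egr1 (98.8 CPM) and the highest Nab1 (139 CPM).

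Of 14180 genes, those outside the 9 most like Egr1 were Fosb (r = 0.960), a partner in the AP-1 factor, Ppp1r15a (0.960), which restores translation after stress, the DNA methyltransferase Dnmt3a (0.951), and the small RNA loci Mir1938 (0.949) and Snora28 (0.948). Those most like Egr2 were the stress factor Atf3 (0.913), Ubald1 (0.886), the growth factor Hbegf (0.882), Ccnl1 (0.880) and the phosphatase Dusp5 (0.878). Among those most like Nr4a1 were the cyclic AMP-induced kinase Sik1 (0.978), the matrix protein Thbs1 (0.949), Rnf39 (0.938) and Fosb (0.938). Fosb was thus named for both Egr1 and Nr4a1.

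Genes that act above, beside or below the 9 were read from lists. The lists were chosen with earlier results of these data known, so the shares of all genes are background and not a test. edgeR called 0 genes of any of these lists between HF and LF mice in batch 1, as it did among all genes, so batch 1 is given by medians and by counts at an unadjusted p under 0.05. As background for all list counts, 22.2% of all genes had such a p in batch 1 and 33.1% in batch 2. The shares called were 4.4% lower and 3.03% higher in batch 2, and 8.41% lower and 9.4% higher over both batches. The other immediate early genes (Fos, Fosb, Jun, Junb, Ier2, Atf3, Dusp1, Zfp36 and Btg2) were lower in HF mice like the Egr and Nr4a genes. In batch 1 their median was -0.78 on the log2 scale, and all 9 had an unadjusted p under 0.05. In batch 2, 8 of the 9 fell (median -0.50), against 4.4% of all genes, and over both batches all 9 fell (median -0.66), against 8.41%. Fosb stood at 837 ± 117 CPM in LF and 335 ± 161 CPM in HF mice of batch 1, and at 519 ± 59.6 and 278 ± 48.9 CPM in batch 2 (SD, n = 4 and 3). Atf3 changed by -0.75 ± 0.16 over both batches (edgeR, adjusted p 0.0052). The median over all genes tested was -0.0038, -0.013 and -0.0030 in these fits.

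Among the factors that switch on Egr genes, SRF and its cofactors (Srf, Elk1, Elk3, Elk4, Mkl1 and Mkl2) had medians of -0.24 in batch 1 (1 of 6 with an unadjusted p under 0.05, against 22.2% of all genes) and -0.25 in batch 2 (1 of 6 called as lower, against 4.4%), and 2 of 6 fell over both (8.41%). Srf had 65.7 ± 5.89 CPM in LF and 42.0 ± 3.95 CPM in HF mice of batch 1, and 76.5 ± 10.7 and 55.1 ± 4.22 CPM in batch 2 (SD, n = 4 and 3), with HF below LF in every sample. Its change over both batches was -0.55 ± 0.08 (edgeR, adjusted p 0.000626), and that of Mkl1, a cofactor that senses actin, was -0.28 ± 0.09 (0.0320). Of the cyclic AMP and calcium factors (Creb1, Crem, Atf1, Crtc1 to Crtc3, Mef2a, Mef2c and Mef2d), 3 of 9 had an unadjusted p under 0.05 in batch 1 (22.2% of all genes), 2 of 8 fell in batch 2 (4.4%) and 3 of 9 fell over both (8.41%). The coactivators Crtc1 and Crtc2 changed by -0.40 ± 0.10 (adjusted p 0.0099) and -0.39 ± 0.09 (0.0056) over both.

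Among partners, the retinoid X receptors Rxra and Rxrb were not called in any comparison and Rxrg was too low to test. Their changes of HF against LF were -0.19 ± 0.05 and -0.23 ± 0.04 over both batches, with adjusted p of 0.0139 and 0.0037 but folds under 1.2. The 13 subunits of the NuRD complex had medians of 0.03 in batch 1 and 0.00 in batch 2, and 2 of 13 rose over both batches (9.4% of all genes), the deacetylase Hdac2 (0.29 ± 0.06, adjusted p 0.0049) and the histone chaperone Rbbp7 (0.34 ± 0.08, 0.0064). In batch 1, 2 of the 13 had an unadjusted p under 0.05 (22.2% of all genes) and in batch 2, 5 of the 13 (33.1%), with 0 called.

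Of 9 genes known as Egr targets elsewhere (Tgfb1, Fn1, Pdgfa, Pdgfb, F3, Ptges, Cd44, Gdf15 and Thbs1), 4 had an unadjusted p under 0.05 in batch 1 (22.2% of all genes). In batch 2, 2 fell (4.4%) and 1 rose (3.03%), and over both batches 2 fell (8.41%), Thbs1, which codes for thrombospondin, and the stress hormone Gdf15. Thbs1 stood at 585 ± 134 CPM in LF, 280 ± 55.8 CPM in HF and 405 ± 119 CPM in HF-LF mice of batch 1, and at 648 ± 108, 293 ± 90.8 and 623 ± 98.2 CPM in batch 2 (SD, n = 4, 3 and 4, then 4, 3 and 5). Its change of HF against LF over both batches was -1.09 ± 0.16 (edgeR, adjusted p 0.0010), and that of Gdf15 was -0.83 ± 0.16 (0.0031). The list as a whole had a median of -0.32 in batch 1 and -0.17 in batch 2.

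**Figure D5:**
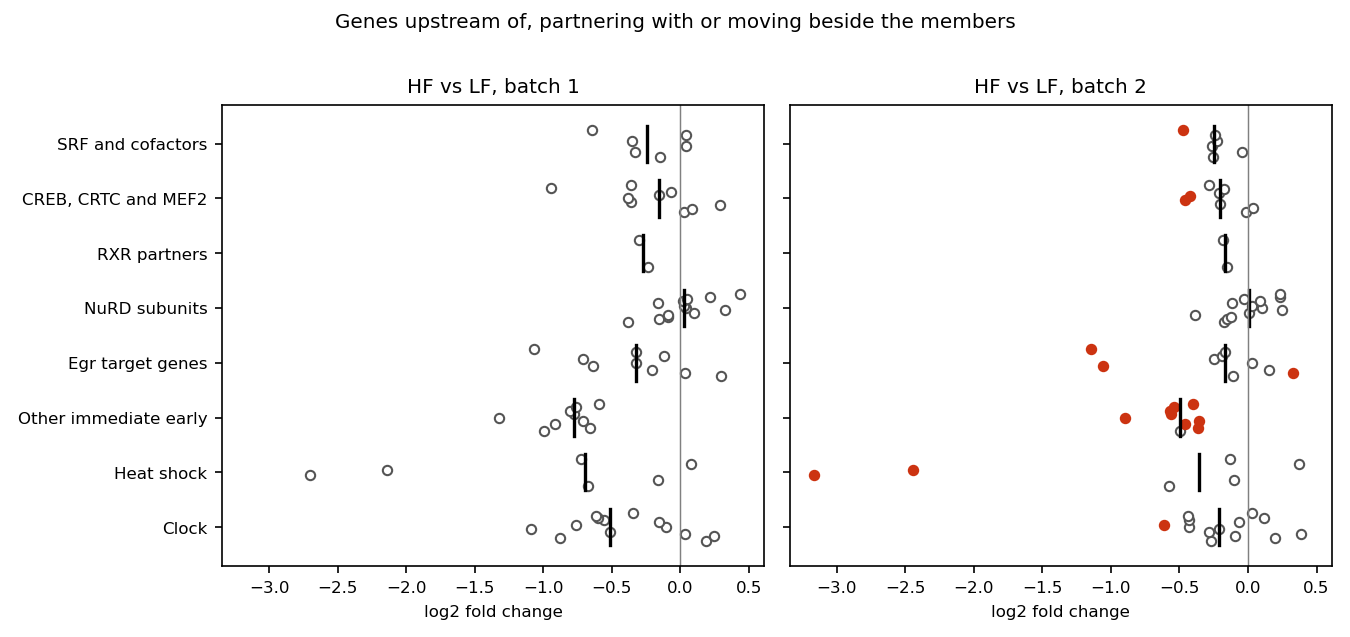
Log2 fold change of HF against LF (x axis) for each gene of 8 lists (y axis) in batch 1 and batch 2, with vertical bars for list medians and filled points for called genes. The other immediate early genes all lie left of 0 in both batches, and 8 of 9 are filled in batch 2, while NuRD subunits spread around 0.

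Other measures moved beside these genes. Of 6 heat shock genes (Dnajb1, Hsp90aa1, Hspa1a, Hspa1b, Hspa8 and Hsph1), 3 had an unadjusted p under 0.05 in batch 1 (22.2% of all genes), 2 fell in batch 2 (4.4%) and 3 fell over both batches (8.41%). In each of these fits 5 of the 6 were lower and 1 was higher, with medians of -0.70, -0.36 and -0.52. Their summed levels overlapped, at 1540 to 2850 CPM in LF and 1836 to 2053 CPM in HF mice of batch 1. In batch 2 the sums were 1874 to 2130 and 1955 to 2303 CPM. Hspa1a, the inducible chaperone, stood at 40.5 ± 17.9 CPM in LF and 6.29 ± 3.80 CPM in HF mice of batch 1, and at 70.1 ± 46.7 and 7.91 ± 2.70 CPM in batch 2 (SD, n = 4 and 3). Hspa1b, whose sequence is nearly identical so that reads may be split between them, changed by -2.28 ± 0.46 over both batches (edgeR, adjusted p 0.0045), and Hspa1a by -2.93 ± 0.58 (0.0041). Of 13 genes of the circadian clock, 8 had an unadjusted p under 0.05 in batch 1 (22.2% of all genes), 1 fell in batch 2 (4.4%) and 5 fell over both (8.41%), with medians of -0.52, -0.21 and -0.26. Nr1d1 changed by -0.68 ± 0.18 (adjusted p 0.0117) and Dbp by -0.62 ± 0.22 (0.0389) over both batches. The part of the heat shock and clock genes in the results on Egr and Nr4a genes was not tested.

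Markers of other cells moved as well. In batch 2 all 5 smooth muscle markers were lower in HF mice with an unadjusted p under 0.05 by edgeR (33.1% of all genes), and 1 was called (4.4%). Their median was -2.48, with summed levels of 5.33 to 28.4 CPM in LF, 0.702 to 4.20 CPM in HF and 1.66 to 14.1 CPM in HF-LF mice. In batch 1, 2 were lower and 3 higher, 0 of them at that p. Their median there was 0.19, with 1.11 to 9.68, 0.383 to 8.60 and 2.19 to 42.9 CPM. Fibroblast markers had medians of -0.26 and -1.10, and their sums in LF, HF and HF-LF mice were 15.7 to 27.3, 2.88 to 28.9 and 12.5 to 51.6 CPM in batch 1 and 9.29 to 33.4, 4.29 to 16.0 and 7.07 to 23.1 CPM in batch 2. Of these 6 markers 5 were lower in HF mice of batch 1, 0 at an unadjusted p under 0.05. In batch 2 all 6 were lower, 3 at that p and 0 called. Endothelial markers summed to 13.1 to 18.4 CPM in LF and 6.65 to 13.9 CPM in HF mice of batch 1, and to 12.3 to 19.4 and 12.1 to 13.9 CPM in batch 2. All 3 tested in batch 1 and both tested in batch 2 were lower in HF mice, 1 in each batch at that p. No marker of these 3 cell types was at 0 in a whole group. In batch 2, 2 of 5 goblet cell markers and 1 of 4 enteroendocrine markers rose in HF mice, 1 of 4 stem cell markers rose and 1 fell (3.03% of all genes rose and 4.4% fell), and 0 of the markers of colonocytes, T cells, B cells, macrophages, and neurons and glia were called by edgeR, with 1, 1, 1, 2 and 0 at an unadjusted p under 0.05 (33.1% of all genes). The goblet cell markers, of which 2 of 5 were lower in HF mice of batch 2, summed there to 30505 to 37960 CPM in LF and 26476 to 29836 CPM in HF mice. In batch 1 they summed to 17895 to 29038 and 15334 to 22253 CPM. Over both batches, 1 of 6 fibroblast and 1 of 3 endothelial markers tested and 1 of 4 stem cell markers fell (8.41% of all genes). In the same fit 2 of 5 goblet cell, 1 of 4 enteroendocrine, 1 of 4 stem cell and 1 of 5 macrophage markers rose (9.4%). Of the 5 goblet cell markers 3 were lower there, with a list median of -0.11. Of the 5 macrophage markers 4 were lower, with a list median of -0.60. Summed macrophage markers were 25.1 to 29.4 CPM in LF and 30.4 to 35.3 CPM in HF mice of batch 1. In batch 2 those sums were 29.2 to 34.9 and 34.9 to 37.2 CPM. Of the 7 epithelial markers 0 were called between HF and LF mice in batch 1 or batch 2 by edgeR, with 0 and 2 at an unadjusted p under 0.05. The part of smooth muscle, fibroblasts, endothelium and macrophages in the results on Egr and Nr4a genes was not tested.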

How the data were processed

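Colonic epithelial RNA of 23 samples was sequenced from stranded libraries depleted of ribosomal RNA. The values that the authors deposited are raw counts of reads per gene locus and sample. By the study's methods and the submitters' processing notes, read pairs were filtered on base quality, adapters were trimmed with cutadapt 1.2.1, reads were mapped to mm10 with STAR 2.5, and hits were counted with featureCounts 1.5.0-p1 of Subread. The strand setting and the treatment of multi-mapping reads are not given in the sources used here.

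The fits used edgeR 4.0.16 (R 4.3.3) with TMM scaling, filterByExpr and the quasi-likelihood F test, with 3 diets in one fit per batch (14428 and 14377 genes) or in both batches with batch as a covariate (14725 genes). p-values were adjusted by Benjamini-Hochberg over all genes tested, and calls needed both an adjusted p below 0.05 and a fold above 1.2, as in the study, which used DESeq2. Errors of fold changes are SE from the F statistic. The scripts were tested on simulated data with 200 changed genes. Egr4 was also compared with two-sided exact permutation tests of log2 CPM with a prior count of 2, adjusted over 9 tests. Alternatives were DESeq2 1.42.0, other scaling, no filter, voom with sample weights (limma 3.58.1), a replicate block and leaving out each sample.

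The 9 genes are given with all values. From each gene list at most 2 genes are named, those with the largest absolute change between HF and LF mice over both batches, and for likeness the 5 genes with the highest r, except that 1 gene of the Egr target list and 1 of the likeness genes are not reported here. The genes and lists were chosen with earlier results of these data known. Sequences are from RefSeq (GRCm38.p6), and exon lengths from GENCODE vM21.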

Additional observations from a re-analysis of the deposited data

How the results depend on the processing

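Of the 9 genes, the number called between HF and LF mice in batch 1 was 0 by edgeR, 6 by DESeq2, 6 by DESeq2 with a normal prior, 7 by voom with sample weights and 4 with a replicate block, and 0 to 7 when 1 sample was left out. The 7 with 1 sample left out came from 9 genes tested, Egr4 included, against 8 in the full fit. In batch 2 it was 3 by edgeR, 5 by DESeq2, 5 by voom, 5 with a replicate block, and 0 to 5 when 1 sample was left out. Between HF-LF and HF mice it was 5 in batch 2 and 0 to 6 when 1 sample was left out, and 4 over both batches and 1 to 5 when 1 sample was left out. The cause was not tested. No alternative called any of the 9 genes between HF-LF and LF mice. Over all genes, 0 of 14428 were called between HF and LF mice in batch 1 by edgeR, 480 of 12258 by DESeq2 and 2422 of 14428 by voom. With the replicate block 92 of 14428 were called, and without replicate 2 of HF 1352 of 14620. In batch 2 edgeR called 1069 of 14377, DESeq2 1855 of 12995, voom 1991 of 14377 and the replicate block 2080 of 14377, with 15 to 2560 when 1 sample was left out. Between HF-LF and HF mice edgeR called 2084 of 14377 in batch 2 (11 to 2778 with 1 sample left out). Over both batches it called 1500 of 14725 (465 to 2647).

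The Egr and Nr4a genes stayed lower in HF than in LF mice under all alternatives. Directions that turned belonged to differences not called. For HF-LF against HF in batch 1, the log2 change of Nab2 was 0.12 by voom, and with 1 sample left out Nab2 ran from -0.93 to 0.40, Egr2 from -0.14 to 0.36 and Nr4a3 from -0.21 to 0.51. Over both batches that of Nab2 was 0.11 by voom and -0.40 to 0.20 with 1 sample left out. In batch 2, Nab2 ran from -0.025 to 0.36 for HF against LF and from -0.090 to 0.14 for HF-LF against HF with 1 sample left out. For HF-LF against LF in batch 2, Nr4a1 was -0.042 by voom, and with the replicate block Nr4a2 was 0.066 and Nr4a3 was 0.050. With 1 sample left out Egr1 ran from -0.032 to 0.084, Egr2 from -0.12 to 0.25, Nr4a1 from -0.11 to 0.14, Nr4a2 from -0.26 to 0.093 and Nr4a3 from -0.28 to 0.28.

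Same-numbered samples of other diets in a batch had deviations correlated at r = -0.349 to 0.365 over 20 pairs, 9 of them over 0.1 (median 0.076). Of 67 such pairs with different numbers, 15 were over 0.1 (median -0.026, range -0.422 to 0.428). The 11 same-numbered pairs across batches were at -0.315 to 0.203. Whether the numbers pair the samples was not settled by these values. They were not taken to do so, and the replicate block was kept as an alternative. Depth limits Egr4, which had at most 12 reads in a sample.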
